A study of Drosophila melanogaster with 6 samples.

Results

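The cysteine, tryptophan and phenylalanine tRNAs encoded in the nuclear genome were followed in fly midguts in which 1 gene copy of a subunit of RNA polymerase III (Pol III) was disrupted. Members were all listed transcripts whose gene name in the annotation marks them as a nuclear tRNA-Cys, tRNA-Trp or tRNA-Phe, whatever their counts. This gave 7 of the 85 nuclear tRNAs in the table, which holds 411 transcripts that passed a filter on low counts and 120 that did not: 4 tRNA-Cys, 2 tRNA-Trp and 1 tRNA-Phe. The mutant group was 3 libraries of midguts from female fruit flies (Drosophila melanogaster) labelled dC53EY22749, which per the study's methods carried 1 disrupted copy of Polr3D, the gene of a Pol III-specific subunit once named dC53, and were examined at 1 week of age. The P-element insertion was carried from development onwards in the outbred Dahomey background, and flies with no intact copy were not viable. The wild-type group was 3 libraries of female midguts labelled White Dahomey, the wild-type background that both genotypes share. Per the study's methods, insertions were backcrossed into Dahomey flies with a w or v mutation, by which they were tracked. RNAs below 200 nucleotides had been enriched and demethylated in all 6 libraries.

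Pol III reads tRNA genes through promoter elements that lie inside the transcribed sequence, and the precursor is then trimmed at its ends and chemically modified. Each mature tRNA carries 1 amino acid to the ribosome and pairs with mRNA codons through its anticodon. tRNA-Cys, tRNA-Trp and tRNA-Phe each use 1 anticodon in these flies. GCA reads the cysteine codons UGC and UGU, CCA reads UGG, the only codon for tryptophan, and GAA reads the phenylalanine codons UUC and UUU. For these isotypes, the family of tRNAs that carry the same amino acid, the summed counts are therefore also the counts of the anticodon.

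Total estimated counts ran from 14281566 to 16891428 in the mutant and from 13465392 to 16830690 in the wild type. The 3 isotypes together held 36170, 43571 and 48849 counts in mutant replicates 1, 2 and 3, against 32616, 35161 and 39810 in wild-type replicates 1, 2 and 3. This was 0.253% to 0.312% of all counts in the mutant libraries and 0.237% to 0.242% in the wild-type libraries. Only 16 protein-coding transcripts were short enough to be listed, so the tissue label was not checked against marker genes, and Polr3D mRNA was not analysed here. The labels do not say whether the libraries of a group came from separate flies or cultures, so p-values measure only the spread between these libraries. In bulk midguts, fewer cells of a type and less RNA per cell cannot be told apart.

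All 7 listed genes are tRNA genes of 1 exon, and coordinates are those of the BDGP6 assembly. In the naming scheme, genes that share a sequence number share a mature sequence, and 1 gene of each number was listed, so the 7 names stand for 23 of the 290 annotated nuclear tRNA genes. The 7 tRNA-Cys genes all lie on chromosome arm 3L. tRNA:Cys-GCA-1-1 (FBtr0073018, 3L, 3095737 to 3095808, plus strand) stands for 4 genes, all within introns of Cht7, a chitinase gene on the opposite strand, among tRNA-Lys genes (anticodon CTT). The other tRNA-Cys sequences have 1 gene each. tRNA:Cys-GCA-2-1 (FBtr0072840, 3L, 1925641 to 1925712, plus strand) lies in an intron of Dbx, a homeobox gene. tRNA:Cys-GCA-3-1 (FBtr0072882, 3L, 2273744 to 2273815, plus strand) overlaps no other gene. tRNA:Cys-GCA-4-1 (FBtr0078490, 3L, 21854094 to 21854165, minus strand) lies in an intron of mub, a gene of an RNA-binding protein, on the opposite strand.

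The tRNA-Trp genes cluster on 2R, with 7 genes there and 1 on 2L. tRNA:Trp-CCA-1-1 (FBtr0086234, 2R, 20657891 to 20657962, plus strand) stands for 2 genes, a pair on opposite strands 142 bases apart in an intron of Lrt, a gene of a leucine-rich tendon protein. tRNA:Trp-CCA-2-2 (FBtr0086603, 2R, 18639557 to 18639628, plus strand) overlaps no other gene and stands for 6 genes, and its nearest tRNA gene is a tRNA-Gly-GCC gene 98 bases away. tRNA-Phe has 1 listed sequence, tRNA:Phe-GAA-1-7 (FBtr0082836, 3R, 13798198 to 13798270, minus strand), which overlaps no other gene. It stands for 8 genes, the most of the 7 names, spread over 3R with 3 genes, X and 2R with 2 genes each and 2L with 1 gene.

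Each of the 7 sequences had a higher mean fitted level in the mutant, by 1.10-fold for tRNA-Phe up to 1.46-fold for a minor tRNA-Cys sequence, and for most of them the libraries of the genotypes overlapped. Levels were compared as CPM, counts per 1000000 after scaling the libraries with TMM factors, which assume that most transcripts keep their level. The test was edgeR's quasi-likelihood test over the 411 transcripts that passed the filter on low counts, with a Benjamini-Hochberg adjusted p below 0.10 as the threshold, the false discovery rate of the study. All 7 members passed the filter. None of them passed the threshold in the edgeR fit, where 5 of the 411 transcripts did (1.22%). With DESeq2 1 member passed, as higher in the mutant, where 6.45% of all transcripts did so. With limma-voom 0 of all 411 transcripts passed. All 7 had a positive log2 fold change (mutant over wild type), from 0.13 to 0.55 with a median of 0.40, although all 7 turned negative when libraries were scaled on nuclear tRNAs and tRNA-Phe also did so when they were scaled on mitochondrial tRNAs or on totals alone. Over all transcripts tested the median was -0.05 and 44.5% were positive, and over the 80 nuclear tRNAs tested the median was 0.34 with 70 positive. At an unadjusted edgeR p below 0.05, 2 of the 7 were higher in the mutant, where 9.49% of all transcripts and 28 of the 80 nuclear tRNAs were. In 1 of the 7 every mutant library lay above every wild-type library, where this held for 8.03% of all transcripts and 24 of the 80 nuclear tRNAs. By these counts the 7 do not stand out among the nuclear tRNAs.

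tRNA-Cys had the most listed sequences of the 3 isotypes, and nearly all of its counts belonged to tRNA:Cys-GCA-1-1. This sequence had 871, 1308 and 1537 CPM in mutant replicates 1, 2 and 3, against 654, 1032 and 881 CPM in wild-type replicates 1, 2 and 3. Mutant replicate 1 was low and overlapped the wild-type range, while the other mutant libraries lay above it. The means were 1239 ± 339 CPM in the mutant and 856 ± 191 CPM in the wild type (SD, n = 3 each). The log2 fold change, 0.53 with an SE of 0.24, did not pass (edgeR adjusted p = 0.331).

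tRNA:Cys-GCA-3-1 was the member whose genotypes did not overlap. It had 86.1, 118 and 96.2 CPM in the mutant libraries, against 58.3, 79.5 and 67.9 CPM in the wild-type libraries. The lowest mutant library stood above the highest wild-type library, by less than the spread within either group. At 0.55 its log2 fold change was the largest of the 7, with the smallest p (SE 0.17, adjusted p = 0.204 in edgeR). With DESeq2, the tool of the study, its log2 fold change of 0.58 passed (adjusted p = 0.0636), as did 6.45% of transcripts in this direction, and it was the only member to pass there. It also passed edgeR in 1 of the 6 fits with a library left out, that without mutant replicate 3 (adjusted p = 0.0906). In that fit 27 of 417 transcripts passed as higher in the mutant and 20 as lower. With limma-voom 0 transcripts passed (61 at an unadjusted p below 0.05).

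The other tRNA-Cys sequences were rare. tRNA:Cys-GCA-2-1 had 18.6, 8.0 and 16.2 CPM in the mutant and 10.2, 12.2 and 10.6 CPM in the wild type. Mutant replicate 2 was the lowest of all 6 libraries and the other mutant libraries were the highest, so the groups overlapped (log2 fold change 0.38, SE 0.29, edgeR adjusted p = 0.552). The log2 fold change was 0.69 without mutant replicate 2 and 0.14 without mutant replicate 1. tRNA:Cys-GCA-4-1 had only 13, 13 and 6 counts in the mutant and 7, 12 and 7 in the wild type. The exact Poisson 95% interval of a count of 6 runs from 2.20 to 13.1 and that of 13 from 6.92 to 22.2, so the intervals of all 6 libraries overlap. They take in counting error alone, as reads copied by PCR are not separate molecules. The error of its log2 fold change (0.40, SE 0.52, adjusted p = 0.701 in edgeR) was the widest of the 7. It lay between 0.18 without mutant replicate 1 and 0.74 without wild-type replicate 2, and a difference was not detectable at this depth.

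tRNA-Trp was held mostly by tRNA:Trp-CCA-2-2, with 726, 682 and 808 CPM in the mutant libraries and 689, 514 and 612 CPM in the wild-type libraries. Wild-type replicate 1 exceeded mutant replicate 2, so the groups overlapped by 1 library on each side. The log2 fold change was 0.29 (SE 0.15, edgeR adjusted p = 0.391). tRNA:Trp-CCA-1-1 had 97.2, 67.8 and 118 CPM in the mutant, against 62.0, 78.2 and 54.7 CPM in the wild type. Here mutant replicate 2 lay below wild-type replicate 2 and the other mutant libraries lay above every wild-type library. The resulting log2 fold change was 0.54 (SE 0.22), with an edgeR adjusted p = 0.310.

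tRNA:Phe-GAA-1-7 had the smallest difference. It had 813, 648 and 712 CPM in the mutant and 670, 619 and 690 CPM in the wild type, with means of 724 ± 83.1 and 659.6 ± 36.5 CPM (SD, n = 3 each). The highest library was a mutant one and the lowest a wild-type one, and 1 mutant library lay inside the wild-type range. The log2 fold change was 0.13 (SE 0.14, edgeR adjusted p = 0.610), with an approximate 95% interval from -0.13 to 0.40. It ranked 62 among the 80 nuclear tRNAs tested when these are ordered by log2 fold change, while tRNA:Cys-GCA-3-1 ranked 26.

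**Figure D1:**
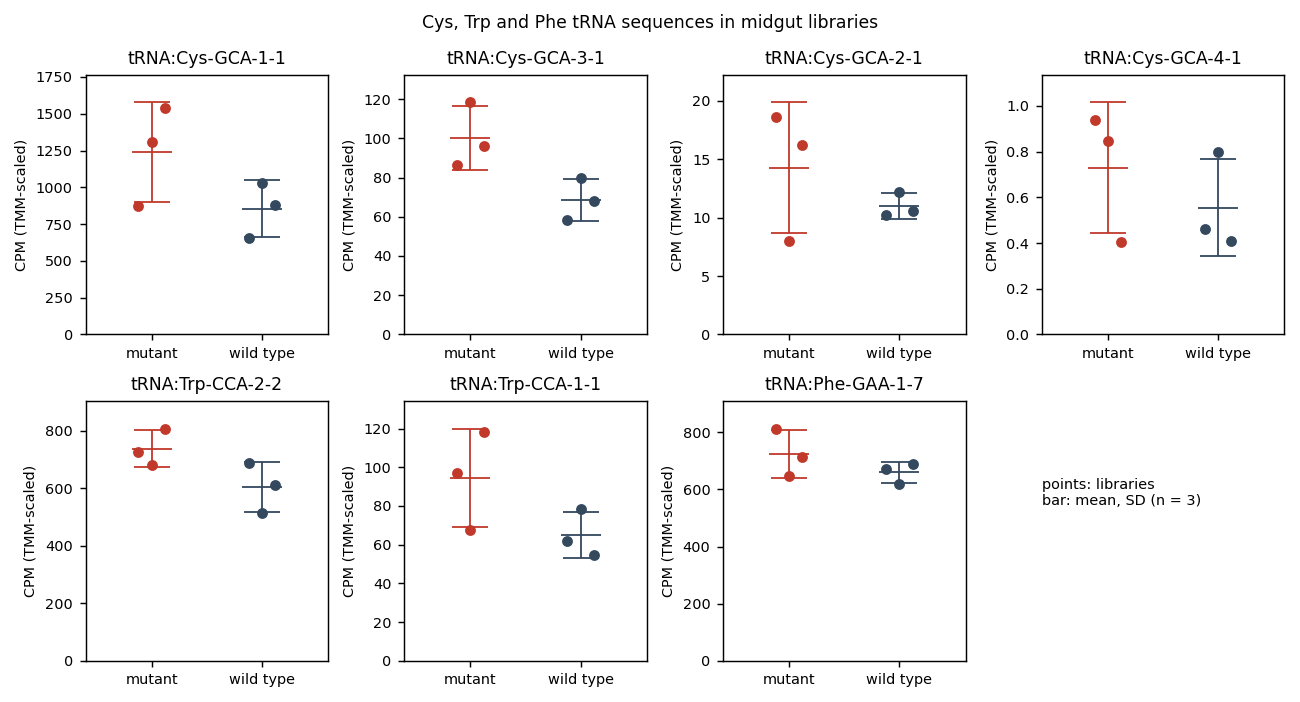
Level of each tRNA-Cys, tRNA-Trp and tRNA-Phe sequence in CPM (vertical axes, each from 0, scaled per panel) in the mutant (left, red) and wild-type (right, dark) libraries, with bars for the mean and SD of 3 libraries. The groups are separate only for tRNA:Cys-GCA-3-1, where the lowest mutant library had 86.1 CPM and the highest wild-type library 79.5 CPM.

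The levels of the members spanned over 3 orders of magnitude. Per base of the listed gene (72 bases, 73 for tRNA-Phe), tRNA:Cys-GCA-1-1 had 17.2 CPM in the mutant and 11.9 CPM in the wild type. It was followed by tRNA:Trp-CCA-2-2 with 10.3 and 8.41 CPM per base in mutant and wild type and by tRNA:Phe-GAA-1-7 with 9.92 and 9.04 CPM per base. The libraries of these 3 overlapped one another in the wild type, and those of tRNA-Trp and tRNA-Phe did so in the mutant, where all tRNA:Cys-GCA-1-1 libraries stood above them. tRNA:Cys-GCA-3-1 came next with 1.39 and 0.953 CPM per base in mutant and wild type, and tRNA:Trp-CCA-1-1 had 1.31 and 0.902 CPM per base, again not apart beyond their spread. tRNA:Cys-GCA-2-1 had 0.198 and 0.153 CPM per base and tRNA:Cys-GCA-4-1 had 0.0101 and 0.00771 CPM per base, each below all libraries of the member before it.

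Levels followed gene number only in part. They are read counts, and how fully each tRNA was demethylated and read was not examined here. Divided by the number of genes that share the sequence, tRNA:Cys-GCA-1-1 had the highest level, with 310 CPM per gene in the mutant and 214 CPM per gene in the wild type. tRNA:Trp-CCA-2-2 had 123 and 101 CPM per gene in mutant and wild type, and the sole tRNA:Cys-GCA-3-1 gene had 100.2 and 68.6 CPM. tRNA:Phe-GAA-1-7, with the most genes, had 90.5 and 82.4 CPM per gene, and tRNA:Trp-CCA-1-1 had 47.2 and 32.5 CPM per gene. The 1-gene sequences tRNA:Cys-GCA-2-1 and tRNA:Cys-GCA-4-1 stood far below, at 14.3 and 0.729 CPM in the mutant and 11 and 0.555 CPM in the wild type. Reads that match several sequences were divided among them by Salmon, so single sequences of 1 isotype are less certain than their sum.

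The make-up of each isotype by sequence was therefore set beside its sum. tRNA:Cys-GCA-1-1 took 91.2% ± 2.0 of tRNA-Cys counts in the mutant, against 91.3% ± 0.760 in the wild type (SD, n = 3 each, exact permutation p = 1). tRNA:Cys-GCA-3-1 took 7.63% ± 1.59 in the mutant, against 7.40% ± 0.574 in the wild type (SD, n = 3 each, exact permutation p = 0.9). tRNA:Trp-CCA-1-1 took 11.8%, 9.03% and 12.8% of tRNA-Trp counts in the mutant libraries, against 8.25%, 13.2% and 8.19% in the wild-type libraries. The wild-type libraries held both the lowest and the highest of these shares (difference 1.33 percentage points, exact permutation p = 0.6), and tRNA:Trp-CCA-2-2 held the remainder. In all 6 shares compared the genotypes overlapped, and each had an adjusted exact p of 1.

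Counts were then summed by isotype and fitted together with all transcripts that are not nuclear tRNAs, 353 entries in all. None of these entries passed an edgeR adjusted p of 0.10 (0%), and 13 did so with DESeq2. An unadjusted edgeR p below 0.05 with a higher level in the mutant was found for 22 entries (6.23%), among them 11 of the 22 isotype sums. Summed tRNA-Cys had 976, 1435 and 1650 CPM in the mutant libraries, against 723, 1125 and 960.3 CPM in the wild-type libraries, with mutant replicate 1 inside the wild-type range. Its log2 fold change was 0.53 (SE 0.22, edgeR adjusted p = 0.371, unadjusted p = 0.0373). It passed with DESeq2, where the log2 fold change was 0.57 (adjusted p = 0.0953), and with limma-voom 0 entries passed (48 at an unadjusted p below 0.05). Summed tRNA-Trp had 823, 750.2 and 926 CPM in the mutant and 750.8, 593 and 667 CPM in the wild type. The groups overlapped by less than 1 CPM, between mutant replicate 2 and wild-type replicate 1. The log2 fold change was 0.31 (SE 0.14, edgeR adjusted p = 0.371, unadjusted p = 0.0460). For tRNA-Phe the sum is the 1 listed sequence, with a log2 fold change here of 0.13 and an SE of 0.13 (edgeR adjusted p = 0.621).

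Ordered by log2 fold change, tRNA-Cys stood at place 8, tRNA-Trp at 11 and tRNA-Phe at 18 of the 22 isotypes, whose median was 0.29. The 4 other isotypes that read a pair of codons with 1 anticodon, as tRNA-Cys and tRNA-Phe do, spanned the whole range. Summed tRNA-Asp and tRNA-His led with 1.10 each (edgeR adjusted p = 0.150 for each), while tRNA-Asn had 0.13 and tRNA-Tyr came last with -0.04. In 9 of the 22 isotypes, and in none of tRNA-Cys, tRNA-Trp and tRNA-Phe, every mutant library lay above every wild-type library, where this held for 5.1% of the entries.

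**Figure D2:**
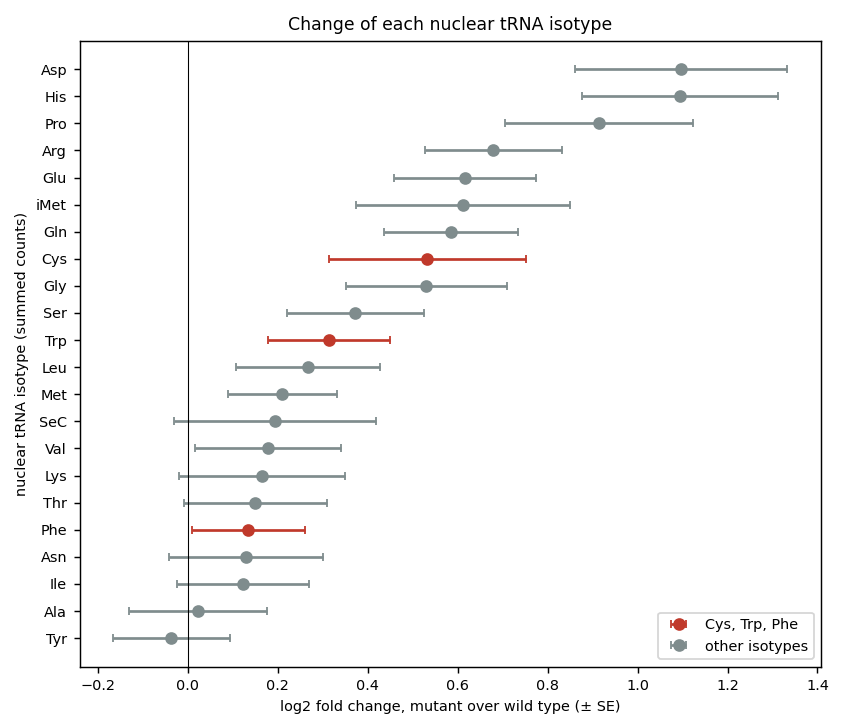
Log2 fold change of summed counts (horizontal axis, mutant over wild type, with SE from the edgeR fit of 6 libraries) for each of the 22 nuclear tRNA isotypes (vertical axis). tRNA-Cys (0.53), tRNA-Trp (0.31) and tRNA-Phe (0.13), in red, lie in the middle and lower part of the order, between tRNA-Asp (1.10) and tRNA-Tyr (-0.04).

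Whether the 3 isotypes differed from one another was tested on ratios within each library, where library scaling cancels. The log2 ratio of tRNA-Cys to tRNA-Phe was 0.26, 1.15 and 1.21 in the mutant libraries, against 0.11, 0.86 and 0.48 in the wild-type libraries. Replicate 1 had the lowest ratio in each genotype, and the spread within a genotype was as large as the difference of 0.39 between them (exact permutation p = 0.3). This difference was 0.70 without mutant replicate 1 and 0.21 without wild-type replicate 1. The ratio of tRNA-Trp to tRNA-Phe differed by 0.19 (p = 0.2) and that of tRNA-Cys to tRNA-Trp by 0.21 (p = 0.6), both by exact permutation with overlapping groups. Over the 3 ratios the adjusted values were 0.45, 0.45 and 0.6, and 0.1 is the smallest two-sided p that 3 against 3 libraries can give. Differences between the isotypes in their change were thus not resolved.

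Relative to the nuclear tRNAs as a whole, all 3 isotypes were lower in the mutant on average, as were 18 of all 22 isotypes (81.8%). In 9 of the 22 (40.9%), tRNA-Trp and tRNA-Phe among them, every mutant library lay below every wild-type library, so these shares do not set the 3 apart. tRNA-Phe took 0.543%, 0.388% and 0.419% of nuclear tRNA counts in the mutant libraries, against 0.705%, 0.593% and 0.622% in the wild-type libraries. All mutant libraries lay below all wild-type libraries, a difference of -0.19 percentage points (exact permutation p = 0.1, adjusted 0.15, the first being the smallest possible). tRNA-Trp took 0.550%, 0.450% and 0.546% in the mutant, against 0.790%, 0.567% and 0.601% in the wild type. These groups were also separate, by a narrow margin, with a difference of -0.14 percentage points (exact permutation p = 0.1, adjusted 0.15). tRNA-Cys took 0.653%, 0.860% and 0.972% in the mutant, against 0.761%, 1.08% and 0.866% in the wild type, and the groups overlapped (difference -0.07 percentage points, exact permutation p = 0.5). The half-width of the 95% Wilson interval of such a share was at most 0.0161 percentage points, so counting error was small beside the spread between libraries.

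The denominator of these shares holds tRNA-His and tRNA-Glu, the most abundant isotypes, which themselves had higher levels in the mutant, with log2 fold changes of 1.10 and 0.62 (edgeR adjusted p = 0.150 and 0.204). Nuclear tRNAs took 14.5% to 16.1% of all counts in the mutant libraries and 10.7% to 11.3% in the wild-type libraries. With tRNA-Glu and tRNA-His left out of the denominator, tRNA-Phe took 0.752% ± 0.135 in mutant and 0.991% ± 0.0599 in wild-type libraries (SD, n = 3 each), and every mutant library again lay below the wild-type libraries (exact permutation p = 0.1). tRNA-Trp then took 0.860% ± 0.0796 in the mutant, against 1.01% ± 0.154 in the wild type (SD, n = 3 each), and its groups overlapped (exact permutation p = 0.2). In an edgeR fit with libraries scaled on nuclear tRNAs, summed tRNA-Phe fell in the mutant, with a log2 fold change of -0.51 (adjusted p = 0.0175), and so did summed tRNA-Trp with -0.34 (adjusted p = 0.0876), while tRNA-Cys had -0.12 (adjusted p = 0.562). Under this scaling 303 of the 353 entries passed, most of them lower, with a median over all entries of -0.74. The signs of the tRNA-Cys, tRNA-Trp and tRNA-Phe differences thus depended on the scale: positive after TMM scaling and negative relative to all nuclear tRNAs. For tRNA-Cys the groups overlapped on both scales.

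**Figure D3:**
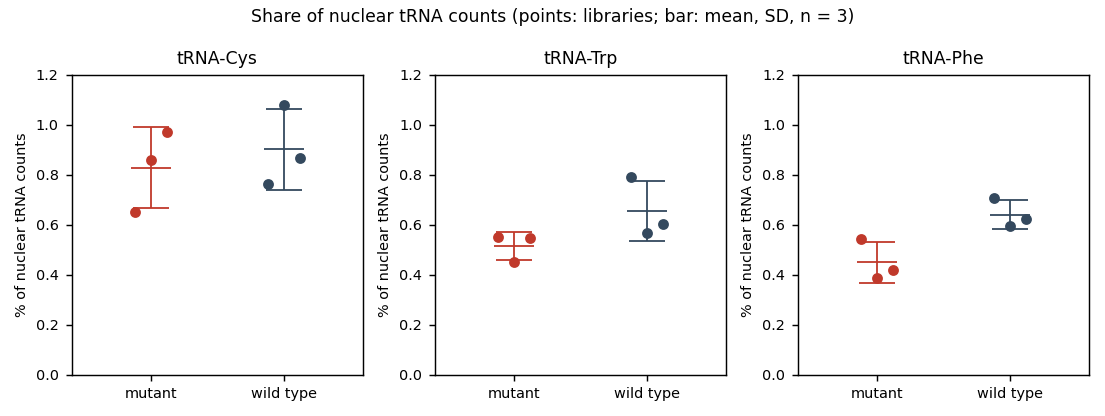
Share of nuclear tRNA counts (vertical axes, percent, from 0) taken by tRNA-Cys, tRNA-Trp and tRNA-Phe in the mutant (left, red) and wild-type (right, dark) libraries, with bars for the mean and SD of 3 libraries. The mutant and wild-type libraries are apart for tRNA-Phe (at most 0.543% in the mutant, at least 0.593% in the wild type) and for tRNA-Trp (at most 0.550% and at least 0.567%), and overlap for tRNA-Cys.

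The 3 isotypes were minor components of the nuclear tRNA reads. Their 23 genes make up 7.93% of the annotated nuclear tRNA genes, and they took 1.79% of nuclear tRNA counts in the mutant, against 2.19% in the wild type (means over 3 libraries). By share, tRNA-Phe was place 21 and tRNA-Trp place 20 of the 22 isotypes in each genotype, and tRNA-Cys place 17 in the mutant, against 18 in the wild type. Per annotated gene, tRNA-Phe was again place 21 in each genotype, with 0.0563% of nuclear tRNA counts per gene in the mutant, against 0.0800% in the wild type. tRNA-His, at place 1, had 3.80% per gene in the mutant, against 2.75% in the wild type.

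Mitochondria make their own tRNAs for cysteine, tryptophan and phenylalanine from the mitochondrial genome, without Pol III. mt:tRNA:Cys-GCA (62 bases) had 3682, 3496 and 4114 CPM in the mutant, against 3725, 3827 and 3578 CPM in the wild type, which overlapped (log2 fold change 0.02, SE 0.14, edgeR adjusted p = 0.939). mt:tRNA:Trp-TCA, which also reads UGA as tryptophan in mitochondria, had 519, 733 and 1259 CPM in the mutant and 578, 739 and 388 CPM in the wild type. It was the least reproducible of the 3, with mutant replicate 3 far above the rest (log2 fold change 0.56, SE 0.33, edgeR adjusted p = 0.426). Its gene and that of mt:tRNA:Cys-GCA overlap by 8 bases on opposite strands. mt:tRNA:Phe-GAA had 6678, 7391 and 5828 CPM in the mutant and 4422, 5250.1 and 5467 CPM in the wild type. All its mutant libraries lay above the wild-type libraries, and it did not pass either (log2 fold change 0.39, SE 0.16, edgeR adjusted p = 0.310). Among all 22 mitochondrial tRNAs tested, 21 had a positive log2 fold change and 1 a negative one, with a median of 0.25. Of these 22, 0 passed, and in 5 every mutant library lay above every wild-type library. Mostly positive log2 fold changes after TMM scaling were thus not limited to the nuclear tRNAs.

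The log2 ratio of nuclear to mitochondrial tRNA of the same amino acid gave no common direction. For cysteine it was -1.51 ± 0.355 in the mutant, against -2.01 ± 0.315 in the wild type (SD, n = 3 each), a difference of 0.50 with overlapping groups (exact permutation p = 0.3). For phenylalanine it was -3.19 ± 0.275 in the mutant, against -2.93 ± 0.187 in the wild type (SD, n = 3 each), a difference of -0.26 that also overlapped (exact permutation p = 0.3). For tryptophan the difference was -0.19 (exact permutation p = 0.7), less than the SD of 0.56 within each genotype. The adjusted values over the 3 were 0.45, 0.45 and 0.7.

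**Figure D4:**
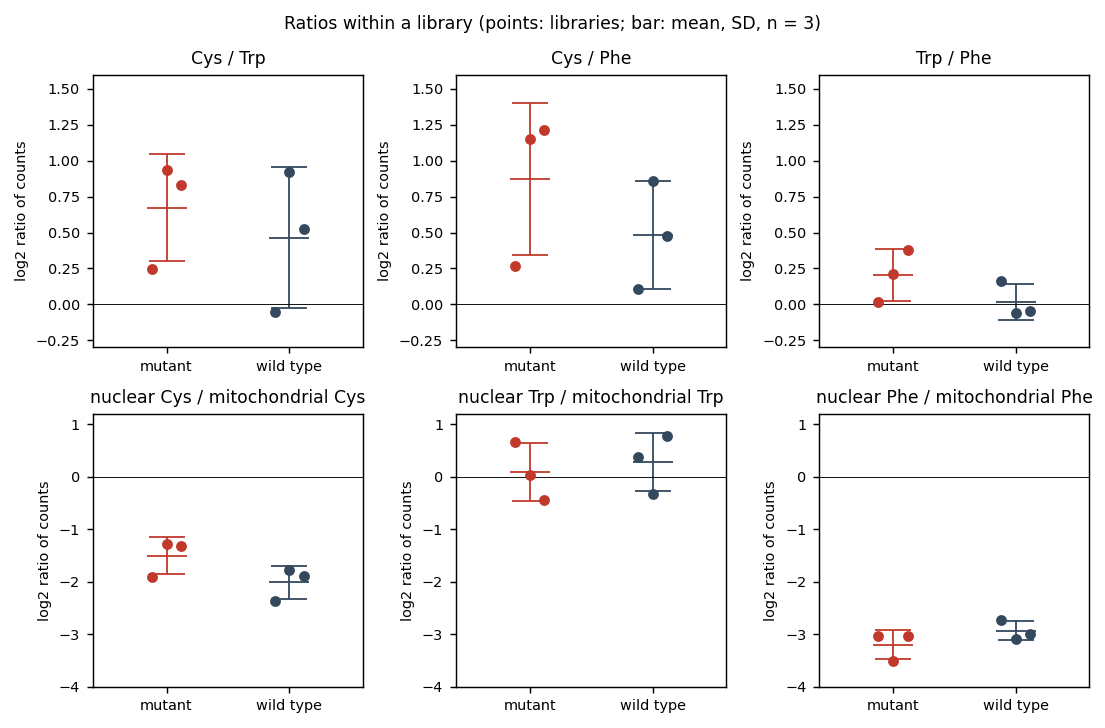
Log2 ratios of counts within a library (vertical axes) in the mutant (left, red) and wild-type (right, dark) libraries, with bars for the mean and SD of 3 libraries. The upper row sets tRNA-Cys, tRNA-Trp and tRNA-Phe against one another and the lower row sets each nuclear tRNA against the mitochondrial tRNA of the same amino acid, and the genotypes overlap in all 6 panels.

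Other Pol III products gave the wider setting. Of the 73 other nuclear tRNAs tested, 5 passed, all higher in the mutant, and 63 had a positive log2 fold change, with a median of 0.34. Of the 11 5S rRNAs, 9 had a positive log2 fold change (median 0.39), as had 1 of the 4 transcripts of 7SL, U6, U6atac and RNase P RNA (median -0.19). At an unadjusted edgeR p below 0.05, 4 of the 5S rRNAs were higher in the mutant, where 9.49% of all transcripts were. Of the other 4 transcripts 1 was lower, where 22 of the 411 transcripts were (14.8% passed in either direction). The most abundant 5S rRNA, 5SrRNA:CR33434, averaged 242102 CPM in the mutant and 182999 CPM in the wild type, with overlapping groups. In the fit with isotype sums it had a log2 fold change of 0.40 and an unadjusted edgeR p of 0.0942. The next, 5SrRNA:CR33441, averaged only 163 CPM in the mutant and 102 CPM in the wild type. Reads that match several 5S entries were divided among them by Salmon, so the 11 need not be independent. The transcripts whose pattern over the 6 libraries was most like that of each isotype sum were picked by the root mean square difference of log2 CPM, each transcript centred on its mean, among 326 to 328 transcripts with at least 10 CPM on average. For tRNA-Phe these were tRNA:Met-CAT-1-4, an elongator methionine tRNA, with a difference of 0.04, and tRNA:Leu-CAA-1-1 with 0.06. For tRNA-Trp they were the listed transcript FBtr0075835, which was not matched to the annotation, with 0.06, and tRNA:Met-CAT-2-1 with 0.07. For tRNA-Cys they were mt:tRNA:Tyr-GTA, a mitochondrial tRNA that is not a Pol III product, with 0.12, and tRNA:Gly-TCC-2-2 with 0.17. mt:tRNA:Tyr-GTA had 1404, 1749 and 2160 CPM in mutant replicates 1, 2 and 3, against 962, 1548 and 1069 CPM in wild-type replicates 1, 2 and 3. As in tRNA-Cys, replicate 1 was the lowest library of each genotype, a likeness that the choice by pattern over these same libraries selects for.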

How the data were processed

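Short RNAs of female fly midguts were sequenced in 6 libraries, 3 per genotype, after size selection and demethylation. Groups and replicate numbers were taken from the sample titles. The authors trimmed reads with Cutadapt and quantified them with Salmon against all annotated fly transcripts (BDGP6, release 32), and the deposited values are estimated counts of transcripts shorter than 300 bases, which are whole numbers and not scaled for depth. Names and coordinates came from the BDGP6 annotation, release 54, of the same assembly (527 of 531 identifiers matched), and pseudogenes were not counted as tRNAs. Salmon divides reads among similar sequences. Mature sequences were not analysed here, so the planned comparison between members was not made.

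In R (version 4.3.3), edgeR (version 4.0.16) was fitted with default filterByExpr settings (a minimum count of 10 and 15 in total), which kept 411 transcripts and removed 120, with TMM factors, glmQLFTest and genotype as the only term. SE values were derived from the F statistic, and approximate intervals are 1.96 SE. Isotype sums used the factors of the transcript fit. Shares and ratios were compared by exact two-sided permutation. Alternatives were DESeq2 (version 1.42.0), limma-voom (limma version 3.58.1), other scalings, no filter, a replicate block and leaving out each library. The denominator without the 2 most abundant isotypes was chosen after seeing the data. Scripts were tested on simulated data. Pairs of libraries in a group differed beyond sampling noise (chi-square over its degrees of freedom at least 220.4), and each counted as 1 sample. All members are named whatever their values, together with the mitochondrial tRNAs of the same amino acids, the other isotypes that read 2 codons with 1 anticodon and the 2 transcripts nearest in pattern to each isotype sum. Members and lists were chosen with earlier results of these data known.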

Additional observations from a re-analysis of the deposited data

How the results depend on the processing

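The number of transcripts called, 5 in the edgeR fit, was 10 with RLE size factors, 327 with scaling on nuclear tRNAs, 16 with library totals alone, 16 with no filter, 30 with DESeq2, 0 with limma-voom (61 at an unadjusted p below 0.05) and 14 with the replicate block. With a library left out it ranged from 0 to 47, with 47 without mutant replicate 3, 12 without mutant replicate 1, 1 without mutant replicate 2 and 0 without any 1 of the wild-type libraries. In the isotype table, with 0 calls, it was 3 with scaling on mitochondrial tRNAs, 303 with scaling on nuclear tRNAs, 9 with no filter, 13 with DESeq2 and 4 with the replicate block, and with a library left out 0 to 43, the last without mutant replicate 3. The median log2 fold change of all transcripts was -0.05 after TMM scaling, -0.69 with scaling on nuclear tRNAs, -0.24 on mitochondrial tRNAs and -0.22 on totals alone.

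Scaling on nuclear tRNAs gave log2 fold changes of -0.12 for summed tRNA-Cys, -0.34 for tRNA-Trp and -0.51 for tRNA-Phe. Among the sequences it gave -0.12 for tRNA:Cys-GCA-1-1, -0.26 for tRNA:Cys-GCA-2-1, -0.10 for tRNA:Cys-GCA-3-1, -0.24 for tRNA:Cys-GCA-4-1, -0.11 for tRNA:Trp-CCA-1-1, -0.37 for tRNA:Trp-CCA-2-2 (adjusted p = 0.0943) and -0.51 for tRNA:Phe-GAA-1-7 (adjusted p = 0.0282). tRNA-Phe, as sequence and as sum, had -0.0521 with scaling on mitochondrial tRNAs and -0.0333 on totals alone. Under the same scalings summed tRNA-Cys had 0.31 and 0.37 and summed tRNA-Trp 0.11 and 0.14, none of them past the threshold. With DESeq2 summed tRNA-Cys passed at 0.57. Under RLE factors, no filter, DESeq2, limma-voom and the replicate block the members stayed positive, and without 1 library summed tRNA-Cys ranged from 0.37 to 0.72, tRNA-Trp from 0.23 to 0.41 and tRNA-Phe from 0.04 to 0.23. Among the sequences the range was 0.36 to 0.73 for tRNA:Cys-GCA-1-1, 0.14 to 0.69 for tRNA:Cys-GCA-2-1, 0.43 to 0.66 for tRNA:Cys-GCA-3-1, 0.18 to 0.74 for tRNA:Cys-GCA-4-1, 0.35 to 0.75 for tRNA:Trp-CCA-1-1 and 0.18 to 0.39 for tRNA:Trp-CCA-2-2.

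Leaving out a library changed the sign of some differences (mutant minus wild type) that lay within the spread. The log2 ratio of tRNA-Cys to tRNA-Trp ranged from -0.0535 to 0.44, and that of nuclear to mitochondrial tRNA-Trp from -0.49 to 0.0689. The difference in the share of tRNA-Cys among nuclear tRNA counts ranged from -0.145 to 0.0150 percentage points. Within tRNA-Cys the difference in the share of tRNA:Cys-GCA-1-1 ranged from -1.18 to 0.82, that of tRNA:Cys-GCA-2-1 from -0.43 to 0.25, that of tRNA:Cys-GCA-3-1 from -0.37 to 1.13 and that of tRNA:Cys-GCA-4-1 from -0.0173 to 0.0185 percentage points. The lower shares of tRNA-Trp (-0.18 to -0.07) and tRNA-Phe (-0.24 to -0.16) kept their sign, as did the log2 ratios of tRNA-Cys to tRNA-Phe (0.21 to 0.70), of tRNA-Trp to tRNA-Phe (0.10 to 0.28), of nuclear to mitochondrial tRNA-Cys (0.33 to 0.71) and of nuclear to mitochondrial tRNA-Phe (-0.34 to -0.11), and the share of tRNA:Trp-CCA-1-1 within tRNA-Trp (0.48 to 2.99 percentage points).

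Titles give both genotypes the numbers 1, 2 and 3, without saying what they mark. The deviations of libraries that share a number correlated by -0.01, -0.29 and -0.27, no library correlated best with the one of its own number, and the numbers were not taken to pair them. The replicate block gave log2 fold changes of 0.52 for summed tRNA-Cys, 0.32 for tRNA-Trp and 0.13 for tRNA-Phe and called no member.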
